A study of Mus musculus and Canis lupus familiaris and Equus caballus with 9 samples.

Results

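Potassium channels let potassium ions leave or enter a cell and so set its resting voltage and the shape and frequency of its electrical signals. Their genes carry symbols that begin with Kcn. Most encode pore-forming subunits, and some encode auxiliary subunits that sit beside the pore and change how it opens. NRSF (REST) represses transcription through zinc fingers that read a long DNA element, NRSE or RE1, and is known for holding neuronal genes silent outside the nervous system.

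The genes described here are all protein-coding mouse genes of the RefSeq GRCm38.p6 table whose symbol begins with Kcn, chosen by name and not by any measured value. They number 94 of the 21900 protein-coding genes, and 4 further Kcn symbols that are non-coding were left out. NRSF binding was measured by chromatin immunoprecipitation and sequencing with an NRSF monoclonal antibody in RAW264.7 cells, an established BALB/c mouse macrophage line at passages 13 to 15, fixed with 1% formaldehyde. The labels give 2 immunoprecipitated samples and 1 input DNA sample without antibody, and name no treatment or genetic change. The labels tie both immunoprecipitated samples to 1 list of 2357 peaks, each 400 bp wide, and the dog, horse and human lists of the series were not used here.

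The list gives positions only. Peaks carry no height or score and replicates no values of their own, so no replicate error can be given and no test between samples was possible. The read depth is unknown, and a gene without a peak is one at which none was listed, not one shown to be unbound. Expression was not measured, so the macrophage label could not be checked against marker genes. The list says where NRSF was called, not whether a gene was silent. A peak was tied to a gene where its midpoint lay inside the annotated span or at most 10 kb beyond either end. All intervals are exact (Clopper-Pearson) 95% intervals for a share of genes.

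Potassium channel genes carried peaks at 19 of 94 members (20.2%, 95% interval 12.6 to 29.8%), compared with 7.49% of all protein-coding genes and 1621 of the 21806 others (7.43%). Among the 19 were Kcnc1, Kcnc2, Kcnd3, Kcns2, Kcnh1, Kcnh2, Kcnh4, Kcnh6, Kcnh7, Kcnma1, Kcnt1, Kcnj6, Kcnab2, Kcnip1, Kcnip2 and Kcnmb2. They lay on 12 of the 19 chromosomes that hold a member. The 25 peaks behind them were all distinct, since no member shared a peak with another. Of the 25, 6 had another protein-coding gene within the same 10 kb reach, and in each the potassium channel gene had the closer end. Genes beyond that reach were not compared. Of the 77 pore-forming and silent subunits 15 had a peak (19.5%), and of the 17 auxiliary and other genes 4 did (23.5%, 95% interval 6.81 to 49.9%).

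One peak could be read at the level of sequence. The peak at chr11:106007785-106008185 (mm10) was the only one of the 25 to overlap a promoter window of a potassium channel gene, a window that runs from 250 bases before to 50 bases after an annotated start and was at hand for 14 of the 19 genes with a peak. It lies at Kcnh6, a gene of the ether-à-go-go family of voltage-gated channels. The 146 bases of that window outside the annotated gene span, at chr11:106007898-106008043 on the plus strand (RefSeq, GRCm38.p6), are shown because they hold the middle of the peak. Capitals mark bases that match a fixed base of the left or right arm of the NRSF element.
Kcnh6 upstream: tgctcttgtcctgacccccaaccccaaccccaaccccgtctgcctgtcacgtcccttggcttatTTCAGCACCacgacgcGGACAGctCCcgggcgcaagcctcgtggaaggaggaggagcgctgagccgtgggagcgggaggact
The element searched for, on both strands, was the left arm TTCAGCACC, then any 2 bases, then the right arm, which is GGACAG, any base and GCC.
Kcnh6 element: TTCAGCACCacgacgcGGACAGctCC
The Kcnh6 stretch held the left arm with 0 mismatches and the right arm with 1 mismatch, in the usual order, but with 7 bases between them where the searched element has 2. Counted from the annotated start, it ran from -186 to -161 bp, and its centre stood at -11 bp from the peak midpoint. Because of the wider gap, the best match of the window to the whole element had 6 mismatches.

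The same spaced pair was then counted in the promoter windows other than that of Kcnh6. The 7-base spacing was taken from Kcnh6 after its sequence had been seen, so that window is left out of the counts. Both arms with at most 1 mismatch each and 7 bases apart occurred in 3 of these 21262 windows of protein-coding genes (0.0141%), and all 3 overlapped a peak, as 123 of the windows did. With any gap from 0 to 15 bases other than 2, 17 windows held both arms, of which 9 overlapped a peak and 8 did not. At the spacing of 2 bases it was 10 windows, 7 of them overlapping a peak. The left arm without mismatch was found in 11.4% of the windows that overlap a peak and in 0.345% of the others. These counts describe letters in the windows and are not a test of binding.

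Across the promoters of the potassium channel genes, near matches to the whole element did not lie at peaks. The table holds promoter windows for 69 of the 94 members. With at most 4 mismatches in the 18 fixed positions, 3 of the 69 had a match (4.35%), as did 135 of all 17492 genes with a window (0.772%). With at most 3 mismatches none of the 69 had one, compared with 28 of all genes. The 3 matches, shown to set beside the Kcnh6 stretch, have matching bases in capitals.
Kcna3: TgCAGCcCCgcGGgCcGcGCC
Kcnip3: aTgAGaACCagGGACAGacCC
Kcnj6: TcCAGCcCCacGGgCtGaGCC
None of these windows overlapped a peak. Over the promoter windows of all protein-coding genes, matches to the whole element were more frequent at peaks. With at most 4 mismatches, 15.3% of the windows that overlap a peak had one and 0.568% of the others. With at most 3 mismatches it was 12.1% and 0.0615%. From the start site, the nearest peak midpoint was 73.5 kb away for Kcna3, 11.2 kb for Kcnip3 and 1.96 kb for Kcnj6. The sequence of the other 24 peaks was not examined: none overlapped a promoter window held for these genes, and 5 of the 19 genes with a peak have no window in the table.

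**Figure D1:**
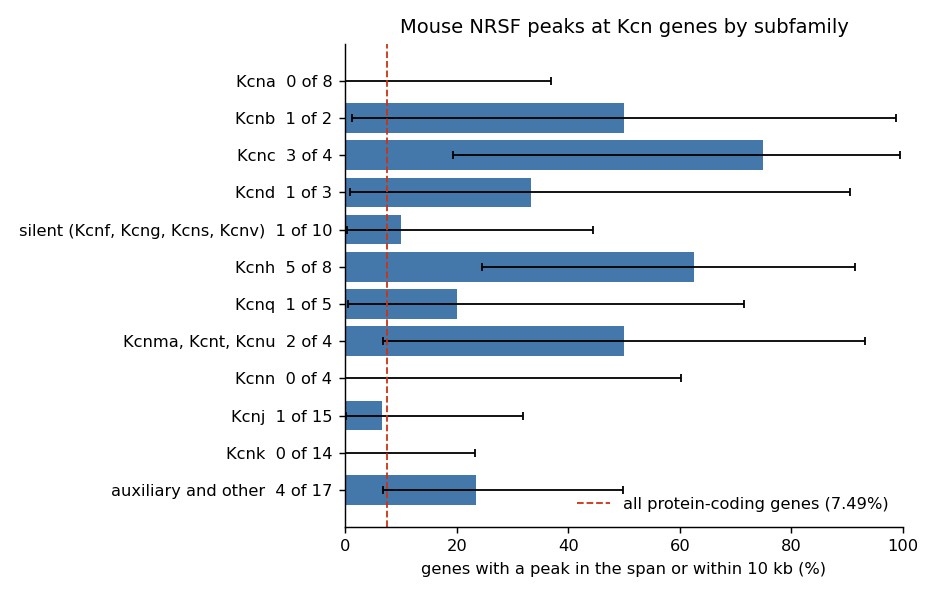
Share of genes with a peak in the span or within 10 kb (x axis, percent) for each potassium channel subfamily (y axis, with the count). Bars are shares, black lines exact 95% intervals, and the dashed line is the 7.49% of all protein-coding genes, with no allowance for gene length. Kcnc and Kcnh stand highest, and Kcna, Kcnn and Kcnk are at 0. For Kcna the share is 37.5% when each peak goes only to the nearest gene end, at any distance.

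The subfamilies differed in their counts, although most hold too few genes for a narrow interval. The voltage-gated channels of the Kcna to Kcnd subfamilies open when the membrane depolarises. In Kcnc, the channels of fast-spiking neurons, 3 of 4 genes had a peak (75%, 95% interval 19.4 to 99.4%). In Kcnb, the delayed rectifiers, 1 of 2 had one, and in Kcnd, the rapidly inactivating channels, 1 of 3. In Kcna, the relatives of the fly Shaker channel, 0 of 8 genes had a peak (95% interval 0 to 36.9%), and the interval includes the background. This 0 rests on the way peaks were tied to genes: with a reach of 20 kb the Kcna share was 12.5%. With each peak given only to the nearest gene end, at any distance, it was 37.5%, through Kcna10, Kcna4 and Kcna3. Their nearest peaks were 11, 32.2 and 73.5 kb away. The differences between subfamilies were not tested.

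Kcnc1 had its peak at chr7:46396645-46397045, with the midpoint 377 bp downstream of the annotated start and 626 bp inside the gene end. The Kcnc2 peak, at chr10:112423305-112423705, lay 152 kb downstream of the closest of 4 annotated starts and 78.2% of the way along the gene. Of these Kcnc peaks, that of Kcnc1 was therefore close to the start and that of Kcnc2 far inside.

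Kcnd3 had 2 peaks inside its 222 kb span, 124 kb apart, at chr3:105487175-105487575 and chr3:105611525-105611925. They stood 35.5 and 160 kb downstream of the start. Kcnd1 and Kcnd2 had no peak within reach, with the nearest 28.5 and 393 kb away.

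The silent subunits of the Kcnf, Kcng, Kcns and Kcnv subfamilies do not form channels alone and join Kcnb subunits to change their behaviour. Of 10 such genes 1 had a peak (10%). That gene was Kcns2, with a span of 6.05 kb and a peak at chr15:34837255-34837655 whose midpoint lay 100 bp inside the lower end. Its peak thus covered an annotated end of the gene, as did that of Kcnh6. For the other 9, the nearest peak was between 78.5 kb (Kcng2) and 1481 kb (Kcnv2) away.

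The Kcnh subfamily, the ether-à-go-go channels that include the cardiac repolarising channel gene Kcnh2, had a peak at 5 of 8 genes (62.5%, 95% interval 24.5 to 91.5%). In 3 of the 5 the midpoint lay outside the span. Kcnh6 had its midpoint 59 bp outside the gene span and at -163 bp from the start, with the end of Ace3 435 bp away. Kcnh4 had a peak at chr11:100758805-100759205, 773 bp downstream of its start and 1110 bp inside the gene. The end of Hcrt, the precursor of the wake-promoting neuropeptides called orexins, lay 2688 bp from that midpoint, and that of Ghdc 7021 bp. The peak is thus within reach of Hcrt and Ghdc as well as Kcnh4. Kcnh7 had a peak at chr2:63186025-63186425, 1938 bp upstream of its start.

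The other members of this subfamily with a peak were placed differently. Kcnh1 had 2 peaks 14.8 kb apart, at chr1:192457530-192457930 and chr1:192472375-192472775, both inside the gene at 83.7% and 88.3% of the way from its 5′ end. The Kcnh2 peak lay 5941 bp outside the gene and at -28034 bp from its listed start, with Nos3, the endothelial nitric oxide synthase gene, also within reach. Kcnh3, Kcnh8 and Kcnh5 had no peak within reach, at 47.6, 125 and 704 kb. The 5 Kcnh genes with a peak had a median span of 32.1 kb and the 3 without one 280 kb, although Kcnh1 and Kcnh7 with their peaks are over 200 kb long.

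Kcnq genes encode the slow channels that carry the M-current of neurons and, in Kcnq1, a repolarising current of the heart. Of the 5, 1 had a peak (20%, 95% interval 0.505 to 71.6%).

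The large channels of the Kcnma, Kcnt and Kcnu group open with calcium, sodium or pH, and the Kcnn channels with calcium alone. Of the 4 large channel genes 2 had a peak. Kcnt1, a sodium-activated channel gene, had its peak 264 bp inside the lower end of its span, at chr2:25863855-25864255. Kcnma1, which encodes the calcium- and voltage-activated BK channel, had its peak 275 kb downstream of the start of a 713 kb gene, at chr14:23729375-23729775. Kcnu1 and Kcnt2 were 251 and 527 kb from a peak. Of the 4 Kcnn genes none had one (95% interval 0 to 60.2%), and Kcnn4, the form found in blood cells, was 10.4 kb from a peak and so just outside the reach. Kcnn1, Kcnn3 and Kcnn2 were 20.1, 92 and 530 kb away.

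Inward rectifiers (Kcnj) and two-pore-domain channels (Kcnk) hold the resting voltage and are found in many tissues. Together 1 of 29 genes had a peak (3.45%, 95% interval 0.0873 to 17.8%), an interval that includes the 7.49% of all protein-coding genes. The exception was Kcnj6, which encodes a G-protein-gated inward rectifier of neurons and had 3 peaks, the most of any member. They lay 7089 bp upstream of its start, at chr16:95004585-95004985, and 1961 bp and 25.0 kb downstream of it, at chr16:94995535-94995935 and chr16:94972475-94972875. All 3 stood at the 5′ part of a gene of 253 kb. The other 14 Kcnj genes, which include Kcnj3, Kcnj5 and Kcnj9 of the same G-protein-gated group, had their nearest peak 104 to 1438 kb away.

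Of the 14 Kcnk genes none had a peak (95% interval 0 to 23.2%). Kcnk10 missed the reach with a peak 10.6 kb from its span, and Kcnk9, Kcnk13, Kcnk15 and Kcnk5 had one between 20.1 and 46.4 kb away. The median Kcnk span was 37.1 kb, more than the 32.7 kb of all potassium channel genes. If Kcnk genes had carried peaks as often as other genes of their length classes, 1.02 would have had one. The 0 counted is about 1 gene below that.

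Auxiliary subunits followed no single pattern. Kcnip genes encode calcium-binding partners of the Kcnd channels, and 2 of 4 had a peak. Kcnip1 had 2 peaks 107 kb apart inside its 364 kb span, of which that at chr11:33680095-33680495 lay 387 bp downstream of the closest of 3 annotated starts and that at chr11:33787365-33787765 lay 56.1 kb downstream of one. The first stood 313 kb from the 5′ end of the gene, at 86% of its length, so it was near an internal start only. Kcnip2 had a peak at chr19:45813785-45814185, 2078 bp downstream of its start.

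Kcnab2, the gene of a cytoplasmic beta subunit of Kcna channels, had a peak inside it at chr4:152424345-152424745, 24.3 kb downstream of the closest start. Kcnmb2, the gene of a beta subunit of the BK channel, had one at chr3:31941475-31941875, 39.0 kb downstream of its start. None of the 5 Kcne genes, whose small products modify Kcnq and Kcnh channels, had a peak, and all 5 spans were at most 13.5 kb. Kcnip3, with a peak 10.5 kb away, was the closest of the 13 auxiliary and other genes without one.

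**Figure D2:**
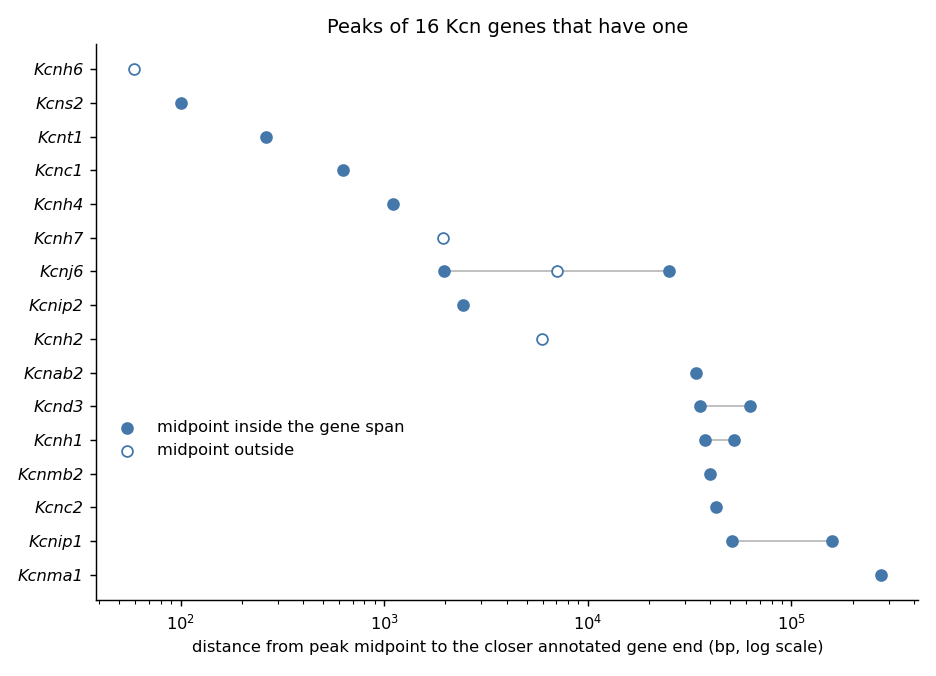
Distance in bp from each peak midpoint to the closer annotated end of the gene (x axis, log scale) for 16 potassium channel genes with a peak (y axis). Filled points lie inside the gene span, open points outside, and a grey line joins peaks of 1 gene; 4 of the 21 points lie within 1 kb, and 11 lie beyond 20 kb.

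Placed side by side, the 25 peaks were more often deep in the gene than those of other genes, with no test of that difference. Of the 25, 20 had their midpoint inside the span (80%), against 60.7% of the 1943 pairs of a peak and another protein-coding gene. Those pairs come from 1502 distinct peaks, so a peak within reach of several genes counts once for each. Potassium channel genes are also longer (median span 32.7 kb against 17.1 kb), and neither difference was allowed for. Of the 25, 11 were over 20 kb from either end (44%), compared with 25.3% of the pairs. Within 1 kb of an end lay 5 of the 25 (20%) and 17.8% of the pairs. More than 1 peak was found in 5 of the 19 genes (26.3%), among them Kcnd3, Kcnh1, Kcnip1 and Kcnj6, and in 13.3% of the other genes with a peak.

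Where the promoter table gives strand and start, 4 of 69 members had a peak midpoint within 1 kb of an annotated start (5.8%, 95% interval 1.6 to 14.2%), compared with 1.35% of all 17492 genes with a start. They were Kcnc1, Kcnh4, Kcnh6 and Kcnip1, whose peaks lay at 377, 773, -163 and 387 bp from the start, where a negative value is upstream. The midpoint was downstream of the start in 3 of the 4. Kcnt1 and Kcns2 had a peak within 1 kb of an annotated gene end, but no strand for them was read from the table. Counted by gene ends within 1 kb, 5 of 94 members had a peak (5.32%), against 1.58% of all protein-coding genes.

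**Figure D3:**
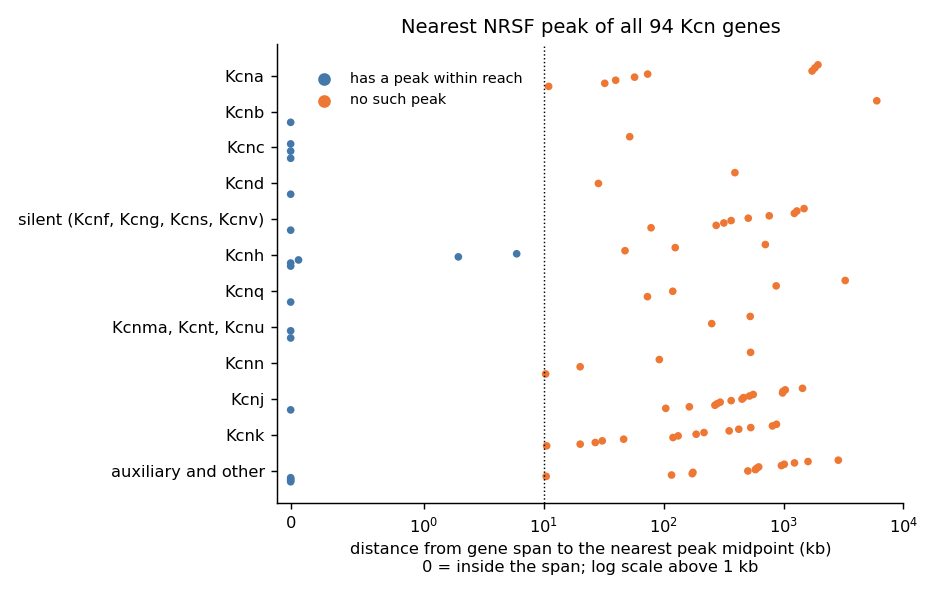
Distance in kb from the span of each of the 94 potassium channel genes to the nearest peak midpoint (x axis, 0 for a midpoint inside the span, log scale above 1 kb), by subfamily (y axis). Blue points are genes with a peak in the span or within 10 kb, orange points the other genes, and the dotted line marks 10 kb; 4 orange points lie between it and 20 kb.

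The count of members depended on the 10 kb limit. With a reach of 5 kb it was 18 (19.1%, against 6.14% of other protein-coding genes). With a reach of 20 kb it was 23 (24.5% against 9.82%). With the gene span alone, 16 members had a peak (17%, against 4.43% of all protein-coding genes). With each peak given only to the gene end nearest to it, at any distance, 26 members were counted (27.7% against 8.50%). They include genes far from any peak, such as Kcnh8 at 125 kb and Kcnt2 at 527 kb. Of the 75 members without a peak, 4 had one within 20 kb, namely Kcna10, Kcnip3, Kcnk10 and Kcnn4, and 56 had none within 100 kb. All 4 lay just past the limit, at 10978, 10471, 10562 and 10361 bp. Of the 19 genes counted, Kcnh2 was the farthest from its nearest peak, at 5941 bp. The median distance to the nearest peak over all 94 members was 181 kb, and over the other protein-coding genes 299 kb. Kcna genes in 1 cluster were alike in this, since Kcna1, Kcna5 and Kcna6, neighbours on chromosome 6, were 1729 to 1934 kb from a peak. Of the neighbours on chromosome 3, Kcna2 and Kcna3 were 57.2 and 73.5 kb away and Kcna10 was 10978 bp away.

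**Figure D4:**
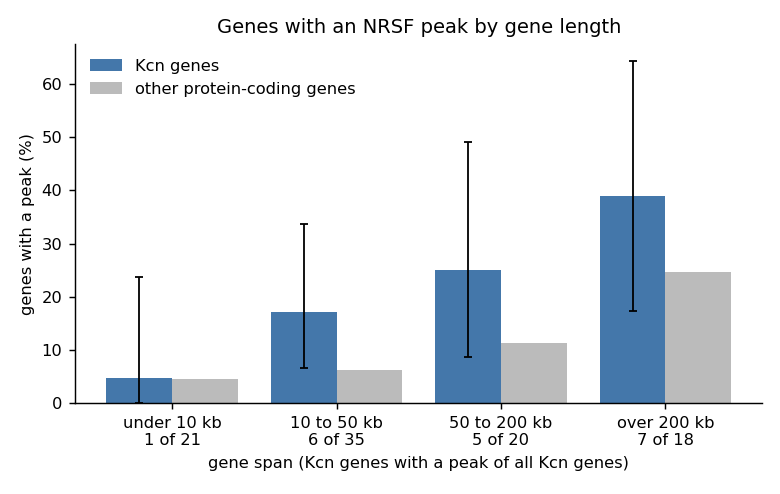
Share of genes with a peak in the span or within 10 kb (y axis, percent) in 4 classes of gene span (x axis), for potassium channel genes (blue, with exact 95% intervals) and other protein-coding genes (grey). Shares rise with span in both sets, and above 10 kb the blue bars stand higher.

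Gene length moved with the counts. Potassium channel genes had a median span of 32.7 kb against 17.1 kb for other genes, and the 19 with a peak had a median of 86.8 kb against 26.8 kb for the 75 without. In genes under 10 kb, 1 of 21 members had a peak (4.76%), close to the 4.64% of other genes of that size. From 10 to 50 kb it was 6 of 35 (17.1% against 6.29%), from 50 to 200 kb 5 of 20 (25% against 11.4%) and over 200 kb 7 of 18 (38.9% against 24.7%). In 3 of the 4 classes, all but that from 10 to 50 kb (95% interval 6.56 to 33.6%), the share of other genes lay inside the 95% interval of the members. At the shares of other genes in the same 4 classes, 9.9 members (10.5%) would have had a peak, against the 19 counted. By subfamily, this number was 0.303 for Kcnc (3 counted), 1.24 for Kcnh (5) and 0.361 for Kcnb (1). For Kcnd it was 0.557 (1), for Kcnq 0.969 (1), for Kcnj 1.21 (1) and for the silent subunits 0.733 (1). For Kcnma, Kcnt and Kcnu it was 0.722 (2), and for auxiliary and other genes 1.86 (4). For Kcna it was 0.437 and for Kcnn 0.487, with 0 counted in each. Per megabase of summed span, 1.87 peak midpoints lay inside potassium channel genes and 1.13 inside other genes.

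**Figure D5:**
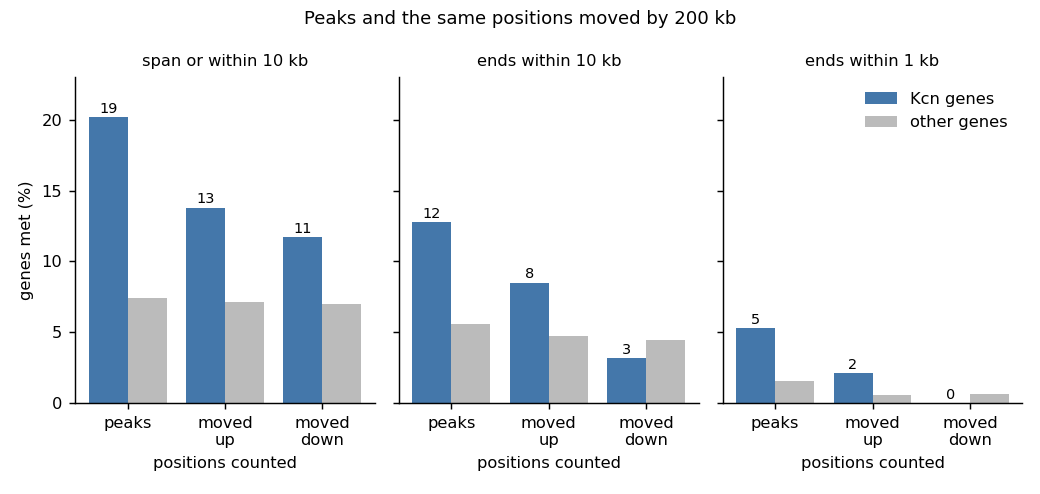
Share of genes met (y axis, percent) by the peaks and by the same positions moved up or down the chromosome by 200 kb (x axis), for potassium channel genes (blue, counts above the bars) and other protein-coding genes (grey), in 3 ways of counting. In each panel the peaks met more potassium channel genes than the moved positions did.

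The same 94 genes were counted with every peak moved by 200 kb, as a background from the neighbourhood. Moved up, the positions met 13 members (13.8%, against 7.17% of all protein-coding genes), and moved down they met 11 (11.7%, against 7.00%). Potassium channel genes thus stood above other genes with moved positions too, by 1.94 and 1.68 times, compared with 2.72 times with the peaks themselves. Of the 18 members longer than 200 kb, in which a moved position can stay inside the gene, 7 were met by peaks and 6 by either set of moved positions. Of the 76 shorter members, 12 were met by peaks, 7 by positions moved up and 5 by those moved down. In Kcnq 1 gene was met by peaks, 1 by positions moved up and 2 by those moved down. In Kcnd these counts were 1, 2 and 0, and in auxiliary and other genes 4, 4 and 1. In Kcnc they were 3, 0 and 0, and in Kcnh 5, 2 and 2. Within 10 kb of a gene end, 12 members were met by peaks (12.8%, against 5.63% of all protein-coding genes), 8 by positions moved up (8.51% against 4.72%) and 3 by those moved down (3.19% against 4.43%). Within 1 kb of a gene end, 5 were met by peaks, 2 by positions moved up (2.13% against 0.566%) and 0 by those moved down (0.635% of all genes).

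The partners of these channels were described from a list of 19 genes that bind, anchor or resemble potassium channels. The list was chosen with earlier results of these data known, so its share is a description and not a test. Of the 19 genes, 8 had a peak (42.1%, 95% interval 20.3 to 66.5%). The share over all protein-coding genes was 7.49%, and 2.24 of the 19 would have had one at the shares of other genes in the same length classes. The class over 200 kb has no upper limit, and Dpp6, Dpp10 and Cntnap2 in it span 910, 1514 and 2241 kb. The 8 also include Hcn genes, which encode channels themselves, so the share is not one of partners alone. Hcn2, Hcn3 and Hcn4, which encode hyperpolarisation-activated pacemaker channels, had 1 peak each, at 1541 bp, 929 bp and 18.9 kb inside a gene end. Pex5l, whose product binds Hcn channels, had 1 peak inside the gene, 35.9 kb from an end. Dpp6, an auxiliary subunit gene of the Kcnd channels with a span of 910 kb, had 8 peaks within reach. All lay inside the span except that at chr5:27737125-27737525, which was 9825 bp outside it. Its relative Dpp10 had 1 peak, 20 bp inside an end and 800 kb from the closest listed start. Cntnap2, whose product gathers Kcna channels on axons, had 1 peak 766 bp upstream of its start.

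Of the 19, 11 had none. These were the BK gamma subunit genes Lrrc26, Lrrc38, Lrrc52 and Lrrc55, the sulfonylurea receptor genes Abcc8 and Abcc9, which pair with Kcnj channels, and Amigo1, Lgi1, Adam22, Cntn2 and Dlg4. The sodium and calcium channel families were set beside these genes, with 7.49% of all protein-coding genes as the background and no test of the differences. The Kcna, Kcnb, Kcnc, Kcnd, Kcnh, Kcnq and silent subunit genes were pooled as voltage-gated, a group that was not planned. This pool holds Kcnc and Kcnh, which stand highest, and leaves out Kcnj and Kcnk (1 of 29) and the voltage-activated Kcnma1. Its genes had a peak at 12 of 40 (30%, 95% interval 16.6 to 46.5%), which describes the pool only. At the shares of their length classes 4.6 would have had a peak. The Scn sodium channel genes had one at 4 of 14 (28.6%, 95% interval 8.39 to 58.1%), against 1.34 by length. The Cacna1 calcium channel pore genes had one at 6 of 10 (60%, 95% interval 26.2 to 87.8%), against 1.62 by length.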

How the data were processed

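The mouse peak list was used as the authors deposited it: a chromosome, a start and an end for each peak, with no header and no measured value, so unit and normalization do not apply. Per the submitters' processing notes, Bowtie 0.12.8 (an aligner) and MACS 1.4.2 (a peak caller) and the build GRCm38 (mm10) are named, with no role. How peaks were thresholded, and how both replicates went into 1 list, is not given in the sources used here. Positions may count from 0 or from 1, so each is known to within 1 base.

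Gene spans and promoter windows came from RefSeq GRCm38.p6; exons were not used, so exon or intron is not given. Potassium channel proteins were not analysed here. Pairs of gene and peak were counted in Python 3.11.15 with numpy 2.4.6, pandas 2.3.3 and scipy 1.17.1, and the counting was tested on simulated data. Members are set by symbol, but this gene family, the gene lists and the ways of counting were chosen with earlier results of these data known. Most members with a peak are named (a few genes are counted but not reported by name here), with positions for the 3 of each subfamily closest to a gene end and for those with 2 or more peaks; members without a peak are named where a subfamily has at most 4, and further names were picked with their values known. Exact 95% intervals treat genes as independent and cover counting error only. Alternatives were other reaches, gene ends only, any base of the peak, the nearest gene end only at any distance, and other numbers of mismatches.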

Additional observations from a re-analysis of the deposited data

How the results depend on the processing

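Of 114 alternative values, 96 stayed within the margin, which is 1.5 times for a count and the 95% interval for a share, so that wide intervals of small subfamilies count as stable. The 19 potassium channel genes became 12 when only gene ends within 10 kb counted and 5 within 1 kb, with 14 and 5 distinct peaks in place of 25. The 1621 other genes became 955 with gene spans only and 340 with ends within 1 kb. With ends within 10 kb, the share in Kcnd was 0% and in auxiliary and other genes 5.88%; with ends within 1 kb it was 0% in Kcnd, Kcnq, Kcnj and the auxiliary and other genes and 12.5% in Kcnh. When a peak counted only for the gene with the nearest end, at any distance, the Kcna share was 37.5% and 26 members were counted. With at most 3 mismatches, 0 member promoters and 28 of all genes matched the element, and with at most 5, 8 and 873, against 3 and 135. The cause of these changes, other than the smaller or larger windows themselves, was not tested. The count inside the span was not run with gene ends only. No stricter peak threshold could be tried, since the list has no score, and no replicate could be left out. No paired analysis was possible because both replicates share 1 peak list.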

Other observations

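The 4 non-coding genes with a Kcn symbol, Kcnd3os, Kcnq1ot1, Kcnmb4os1 and Kcnmb4os2, had 0 peaks inside or within 10 kb. Some peaks of the potassium channel genes also lay in the span of a gene not listed as protein-coding. Such were Gm35971 at Kcnh6, Gm34110 at Kcnh7, Gm12119 at Kcnip1 and Gm32970 at Kcns2. These genes were named after their values were seen, and no count for other peaks was made.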
